A study of Mus musculus with 8 samples.

Results

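Glycolysis splits glucose into pyruvate in the cytosol, and these data followed 31 mouse genes that carry, regulate or accompany it. The list was chosen by name: 4 transporters of glucose and lactate, 9 enzymes of upper glycolysis, 6 of lower glycolysis, 2 lactate dehydrogenase subunits, 4 regulators of flux and 6 genes of the hypoxia response. They are 31 of the 32285 genes counted, and each had at least 1 unique molecular identifier (UMI, the tag that marks 1 captured RNA molecule) in the cells kept. Transcripts were counted in single live immune cells sorted by FACS from deep cervical lymph nodes, the nodes that drain the brain, taken at day 20 from C57BL/6 mice. Libraries came from the 10x Genomics 5' V2 kit, and there was 1 expression library per group. The saline control group received DPBS in the brain, while the other 4 received GL261, a mouse glioma line. Of these, 2 groups were wild-type mice given isotype IgG or anti-CTLA-4, an antibody that blocks an inhibitory T cell receptor. The remaining 2 were given anti-CD20, which depletes B cells, together with isotype IgG or anti-CTLA-4. Whether the saline mice received an antibody, and how many mice stand behind a library, is not given in the sources used here. With 1 library per group no difference between groups had a replicate check, and no p-value was computed.

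Hexokinase, phosphofructokinase and pyruvate kinase catalyse the steps of glycolysis that are practically irreversible, and lactate dehydrogenase turns pyruvate into lactate, which leaves the cell through monocarboxylate transporters. When oxygen is scarce the transcription factor HIF-1 escapes degradation and raises many of these genes. B and T cells that have met antigen commonly take up more glucose, and the germinal centre, where B cells divide and mutate their receptors, has been described as a poorly oxygenated site. The letters A or G followed by CGTG form the core to which HIF-1 binds, and CACGTG is the E-box read by MYC and related factors.

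The upstream sequences of 5 members are shown because these genes were among those with B cell or T cell differences described further on. Each is the 250 bases before an annotated start, on the gene's own strand, from RefSeq in build GRCm38.p6. The windows lie at chr6:125165774-125166023 (minus strand) for Gapdh, chrX:106186850-106187099 (plus) for Pgk1, chr7:46845554-46845803 (plus) for Ldha, chr6:124814159-124814408 (minus) for Tpi1 and chr12:54203875-54204124 (minus) for Egln3. Capitals mark the motif ACGTG and the motif GCGTG, read on either strand.
Gapdh: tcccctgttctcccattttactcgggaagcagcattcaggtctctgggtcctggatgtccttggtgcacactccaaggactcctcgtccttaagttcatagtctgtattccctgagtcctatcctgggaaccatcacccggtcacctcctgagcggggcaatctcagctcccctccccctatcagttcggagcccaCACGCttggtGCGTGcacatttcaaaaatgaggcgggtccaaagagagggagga
Pgk1: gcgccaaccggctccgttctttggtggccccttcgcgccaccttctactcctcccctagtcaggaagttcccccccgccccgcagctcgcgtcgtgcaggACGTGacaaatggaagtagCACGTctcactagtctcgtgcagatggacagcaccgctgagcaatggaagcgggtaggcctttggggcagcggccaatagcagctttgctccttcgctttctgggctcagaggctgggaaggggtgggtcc
Ldha: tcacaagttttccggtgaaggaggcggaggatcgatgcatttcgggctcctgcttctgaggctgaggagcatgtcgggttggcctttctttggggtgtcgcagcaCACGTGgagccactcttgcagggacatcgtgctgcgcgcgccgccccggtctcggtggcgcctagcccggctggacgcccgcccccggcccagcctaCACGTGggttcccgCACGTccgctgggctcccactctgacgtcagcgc
Tpi1: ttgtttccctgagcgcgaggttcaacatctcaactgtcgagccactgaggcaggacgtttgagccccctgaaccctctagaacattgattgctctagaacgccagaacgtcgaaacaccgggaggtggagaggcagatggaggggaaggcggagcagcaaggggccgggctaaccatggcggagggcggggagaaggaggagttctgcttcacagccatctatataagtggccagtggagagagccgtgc
Egln3: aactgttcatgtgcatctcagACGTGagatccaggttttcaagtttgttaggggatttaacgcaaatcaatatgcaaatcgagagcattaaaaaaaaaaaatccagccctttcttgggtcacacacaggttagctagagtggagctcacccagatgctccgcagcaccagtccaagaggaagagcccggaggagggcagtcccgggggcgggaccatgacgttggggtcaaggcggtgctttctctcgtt
The Ldha window held ACGTG 5 times counting both strands, 4 of these within 2 copies of CACGTG, which reads the same on both strands. Pgk1 held ACGTG 2 times, Egln3 held it 1 time, and Gapdh held GCGTG 2 times and no ACGTG. The Tpi1 window held none of these motifs.

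Of the 31 members, 30 matched an entry and gave 44 windows, with Slc2a3 the member without one. ACGTG, on either strand, was in 20 of the 44 member windows (45.5%) and in 16.6% of all 32851 windows of this length. GCGTG was in 24 member windows (54.5%) and in 28.2% of all. CACGTG, which contains ACGTG, was in 6 member windows (13.6%) and in 6.02% of all. The median GC content was 60.4% in member windows and 52.4% in all windows, and its part in the motif shares was not tested. A match describes these letters and is no evidence that a factor binds there.

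The libraries held 54715065 to 63497466 UMIs, and 8302 to 10598 cells per library were kept, with a median of 4261.5 to 6026 UMIs per cell. Pairs of libraries shared 109 to 164 cell barcodes, which is 1.209% to 1.701% of the smaller library. The isotype library stood apart: its median mitochondrial share was 1.00% against 1.77% to 2.09% elsewhere, and its follicular B cells held 7518 CPM (UMIs of a gene or list in a class, scaled to a total of 1000000) of 10 dissociation and stress genes, against 4896 and 4914 in the saline and anti-CTLA-4 libraries. The stress genes did not stand out this way in every class. Naive CD4 cells held 6243 CPM of them in the isotype library, against 5629 and 5618 in the saline and anti-CTLA-4 libraries. Naive CD8 cells held 3775 CPM against 4133 and 3711. A B cell cluster with 201 of 204 cells from the isotype library was kept among follicular B cells, and a T cell cluster with 276 of 280 cells from it was left unnamed. Without that B cluster the counts of higher and lower members were the same for activated over follicular B cells. They were also the same for germinal centre over follicular B cells, over the 4 libraries with enough cells. Other class comparisons with follicular cells were not repeated without it. Cells were named from clusters made without the 31 genes, so the names are approximate: each class is the cells that resemble that type. Foxp3, the defining factor of regulatory T cells (Treg), stood at 300 to 438 CPM in the Treg classes and at 2.54 to 3.47 CPM in naive CD4 T cells. Because its level was part of the rule that named the Treg classes, this difference describes them and is no check of their names.

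All levels below are CPM, the share of a class's UMIs in 1 library, always listed as saline control first, then isotype and anti-CTLA-4 without depletion, then isotype and anti-CTLA-4 with depletion. A ratio between classes was formed within each library, with an exact binomial 95% interval that covers counting error only. A gene was compared if at least 10 UMIs were to be expected in the smaller side of every library used. It counted as higher or lower if it was at least 1.5-fold apart, in 1 direction, in every library with 20 or more cells on both sides. Comparisons that use the same follicular or naive cells are not independent of each other. A member passing the count filter only through the class where it is abundant was bound to differ, so counts over the compared members describe them and support nothing by themselves. Where values or shares are said not to overlap between classes, the gene had already been called by this fold, so this adds no support. The share of all genes without overlap is not given here. UMIs of Gapdh, Pgk1, Aldoa, Ldha, Eno1, Pkm, Tpi1 and Pgam1 are less certain than the others, because these genes have near-identical processed pseudogenes with which reads can be shared.

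Together the 31 genes took a small share of UMIs in follicular and activated B cells and larger shares in dividing and antigen-experienced cells. Plasma cells, which are known to fill with antibody transcripts, gave 0.122% and 0.170% in the isotype and anti-CTLA-4 libraries. Follicular B cells spent 0.218%, 0.214% and 0.2004% of their UMIs on them in the 3 libraries with B cells. Naive CD4 cells gave 0.283%, 0.276%, 0.267%, 0.263% and 0.259% over the 5 libraries, and naive CD8 cells 0.233% to 0.254%. The germinal centre cluster gave 0.444%, 0.465%, 0.399%, 0.384% and 0.301%, the highest values being those of the saline and isotype libraries. In every library these shares lay above those of follicular B cells in any library.

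Among T cells, effector Treg cells gave 0.379% to 0.410%, and antigen-experienced conventional CD4 cells gave 0.379%, 0.493%, 0.417%, 0.352% and 0.375%. Proliferating T cells gave 0.420%, 0.745%, 0.510%, 0.566% and 0.568%, the isotype library being highest and the saline library, with 22 cells, lowest. Memory and effector CD8 cells gave 0.256% to 0.264%, above naive CD8 cells in each library.

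**Figure D1:**
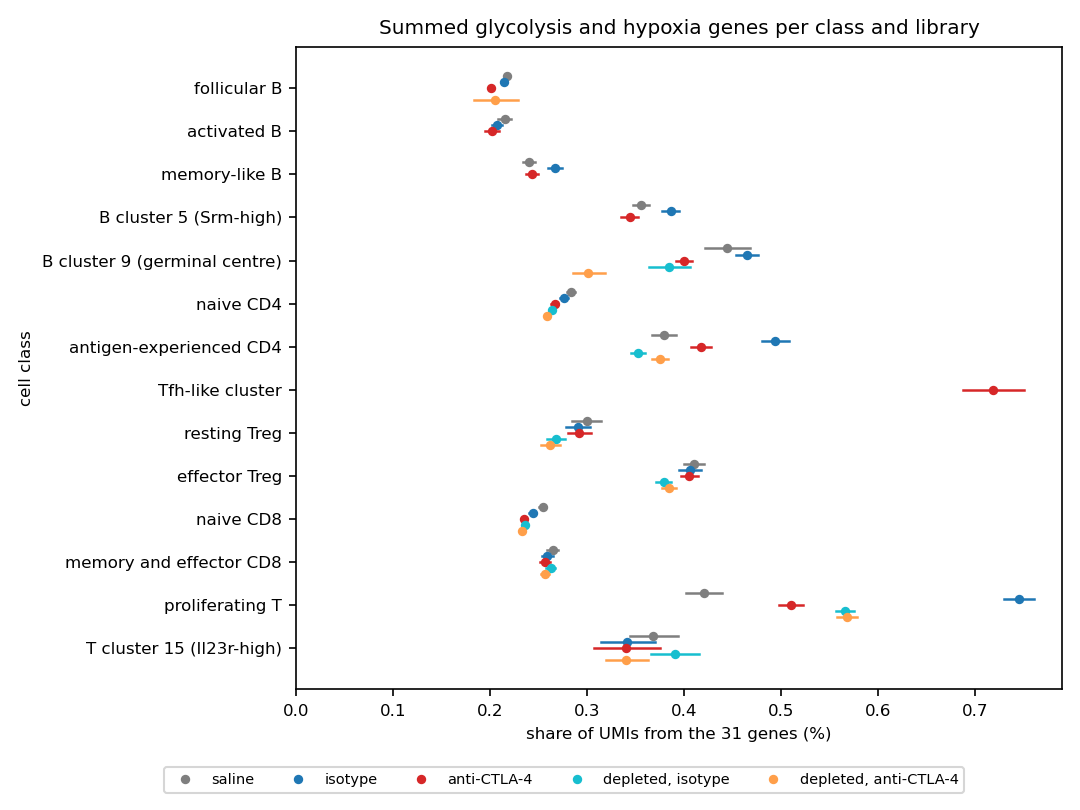
Share of UMIs in the 31 genes, in percent (axis), by cell class and library; each point is 1 library with at least 20 cells, and bars are exact 95% binomial intervals of counting error. Follicular and activated B cells lie near 0.2% and the germinal centre cluster between 0.301% and 0.465%.

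**Figure D2:**
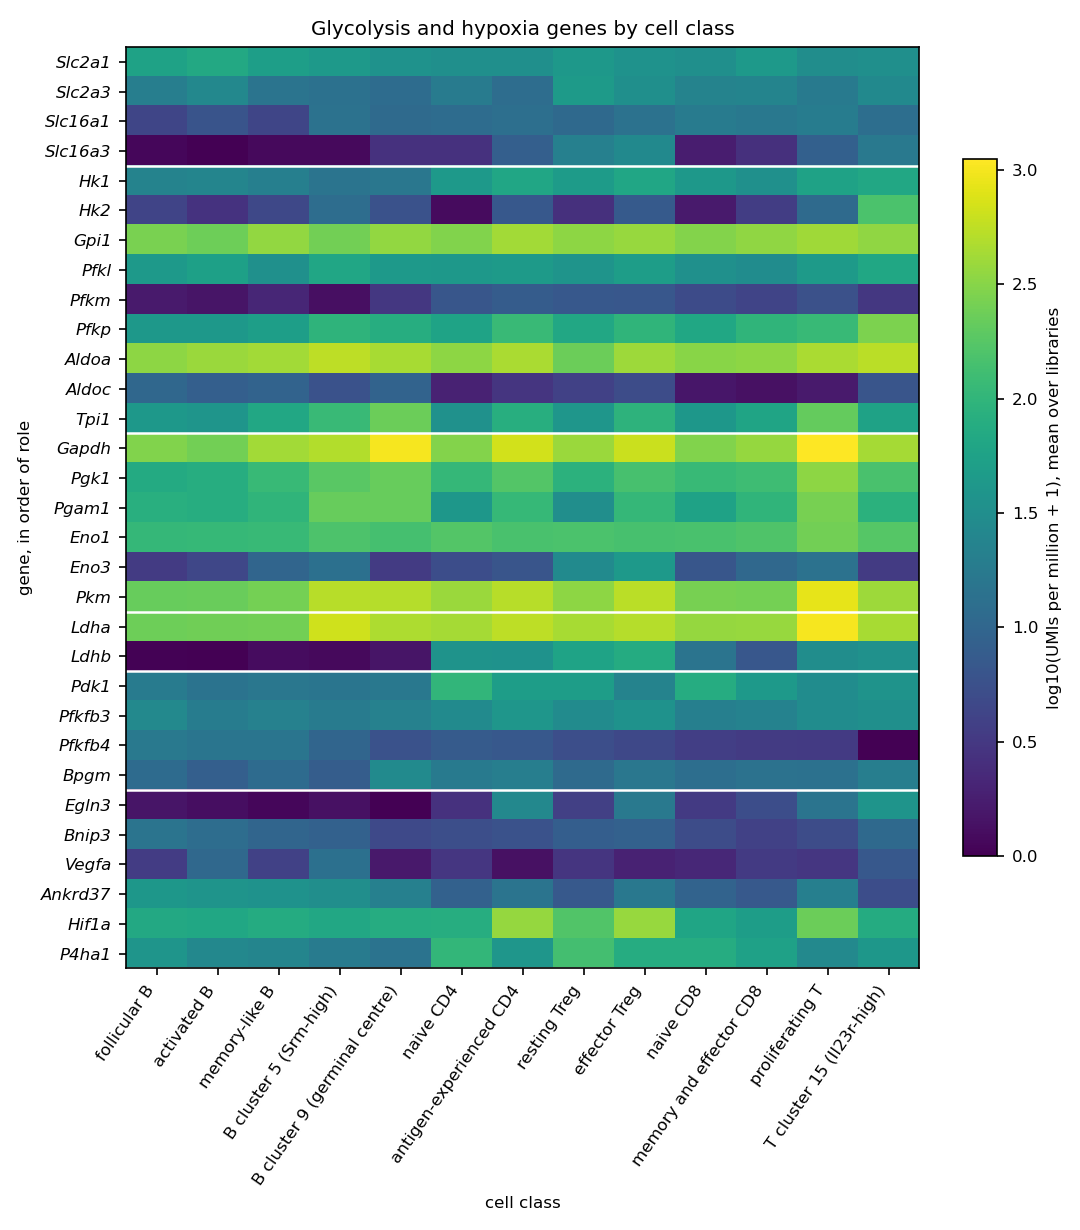
Level of each of the 31 genes (rows, grouped by role) in each cell class (columns), as log10 of CPM plus 1, averaged over libraries with at least 20 cells. Lower glycolysis is strongest in the germinal centre and proliferating T cell columns, and Hif1a in antigen-experienced CD4 and effector Treg cells.

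Germinal centre B cells carried more transcript of several glycolytic enzymes than follicular B cells, among them a phosphofructokinase, pyruvate kinase and a lactate dehydrogenase subunit, while most transport and hypoxia genes had too few UMIs to be compared. They were represented by B cluster 9, with 25, 74, 169, 22 and 39 cells and a median of 12205 UMIs per cell. Over the 4 libraries with enough cells, 4 of 9 members compared were higher and 0 lower, where 13.3% of all genes compared were higher and 7.78% lower. The 4 were Tpi1, Gapdh, Pgk1 and Pkm. The depleted anti-CTLA-4 library entered that count with 22 follicular cells. Without it, the 3 libraries with B cells allowed 14 members to be compared: 7 were higher and 1 lower, where 21.3% of all genes were higher and 11.6% lower. The median log2 ratio of the 14 members was 0.82 ± 0.13 (SD over 3 libraries), and that of all genes 0.14.

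In upper glycolysis, Tpi1, triosephosphate isomerase, which interconverts the 3-carbon products of aldolase, stood at 45.8, 49.4 and 44.2 CPM in follicular B cells and at 265, 258, 262, 209 and 167 CPM in cluster 9. Its ratios were 5.78 (95% interval 4.54 to 7.28), 5.21 (4.57 to 5.93) and 5.94 (5.3 to 6.65) in the 3 libraries with B cells, the largest among the 14 members. No cluster 9 value came near the follicular values. Pfkp, the platelet-type phosphofructokinase, stood at 36.7, 39.3 and 42.8 CPM in follicular cells and at 110, 82.5, 82.8, 62.3 and 49.5 CPM in cluster 9. Its partner isoenzyme Pfkl, the liver type, was level, at 41.9 to 48.4 CPM in follicular cells and 36.9 to 50.4 CPM in cluster 9. Pfkp therefore made up 66.0%, 67.6% and 64.3% of the UMIs of the 3 phosphofructokinase genes in cluster 9 and 42.8%, 47.8% and 47.3% in follicular cells, and these ranges did not overlap. Aldoa, the main aldolase of most tissues, was 1.18 to 1.40 times its follicular level, and Gpi1, which turns glucose 6-phosphate into fructose 6-phosphate, stood at 334, 368, 374, 358 and 328 CPM against 265, 265 and 271.

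In lower glycolysis, Gapdh, the enzyme that oxidises glyceraldehyde 3-phosphate, stood at 298, 301 and 210 CPM in follicular cells and at 1125, 1277, 806, 1121 and 712 CPM in cluster 9. The ratios were 3.78 (3.38 to 4.21), 4.24 (4.01 to 4.48) and 3.83 (3.61 to 4.06). Pgk1, the kinase that makes the first ATP of the pathway, stood at 77.8, 71.1 and 79.9 CPM in follicular cells and at 246, 254, 267, 168 and 165 CPM in cluster 9. All cluster 9 values of both genes exceeded all follicular values.

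Pgam1, phosphoglycerate mutase, stood at 84.6, 73.4 and 76.5 CPM in follicular cells and at 236, 276, 254, 212 and 120 CPM in cluster 9. Pkm, pyruvate kinase, stood at 224, 226 and 222 CPM against 589, 616, 543, 470 and 325. In both genes the depleted anti-CTLA-4 library gave the lowest cluster 9 value, and in that library Pgam1 was 1.25-fold (0.69 to 2.39) its level in the few follicular cells there. Eno1, the enolase of most tissues, was an exception in lower glycolysis: it stood at 164, 155, 112, 137 and 127 CPM against 134, 123 and 89.5. Ldha, the lactate dehydrogenase subunit that favours lactate formation, stood at 209, 219 and 214 CPM in follicular cells and at 492, 604, 513, 383 and 337 CPM in cluster 9.

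Of the transport genes 1 of 4, and of the hypoxia genes 2 of 6, could be compared in the germinal centre cluster over the libraries with B cells. Slc2a1, the glucose transporter GLUT1, stood at 66.2, 19.5, 35.2, 31.1 and 23.6 CPM in cluster 9 and at 64.1, 57.5 and 65.2 CPM in follicular cells, so that only the saline library, with 25 cells, reached the follicular range. Ankrd37, a HIF-1 target of unclear function, was the 1 member lower in cluster 9, at 31.5, 24.8 and 18.9 CPM against 60.7, 46.1 and 40.8. Hif1a, which encodes the oxygen-regulated subunit of HIF-1, stood at 107, 86.5, 73.4, 59.2 and 49.5 CPM against 65.8, 63.7 and 67.5.

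Low counts limited the other hypoxia genes in this cluster. Egln3, the oxygen-sensing hydroxylase PHD3 and a strong HIF-1 target, had 0 UMIs in cluster 9 in all 5 libraries and 0.492 to 0.754 CPM in follicular cells. Vegfa, the endothelial growth factor, had 0 UMIs in cluster 9 in the 3 libraries with B cells. Bnip3, which promotes removal of mitochondria, stood at 3.15, 5.37 and 9.84 CPM against 15.2, 12.4 and 14.5, too few UMIs to be compared. Bpgm, which makes 2,3-bisphosphoglycerate, stood at 28.4, 27.5, 29.5, 28.0 and 23.6 CPM in cluster 9 and at 8.39, 7.29 and 7.46 CPM in follicular cells, again below the count needed.

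Cluster 9 contained dividing cells, and its proliferation markers, like the enzymes called higher, stood above those of follicular cells. Over libraries the order of these markers was not that of most enzymes. The markers and Pgk1 were highest in the anti-CTLA-4 library. Tpi1 and Pfkp were highest in the saline library, and Gapdh, Pgam1, Pkm and Ldha in the isotype library. The markers and all these enzymes were lowest in the depleted anti-CTLA-4 library. The summed proliferation markers stood at 2836, 3481, 3850, 3302 and 1501 CPM in cluster 9 and at 37.0 to 39.5 CPM in the follicular cells of the libraries with B cells, and 6 of the cluster's 10 leading genes were proliferation markers and 2 were germinal centre markers. At a finer clustering resolution the cluster split into a part with Rgs13, Mef2b and S1pr2 among its leading genes and a cycling part. In the isotype and anti-CTLA-4 libraries, the only ones with 20 or more cells in both parts (29 and 85 non-cycling, 44 and 82 cycling), the non-cycling part was compared with follicular cells. Again 7 of 14 members were higher and 1 lower, where 18.3% of all genes were higher and 11.2% lower, and the 7 were the same genes. Tpi1 was 3.51-fold and 4.14-fold higher there, Gapdh 3.86-fold and 2.95-fold, and Ldha 1.82-fold and 1.51-fold. The member that was lower was Slc2a1, at 11.8 and 41.1 CPM. Proliferation markers in the non-cycling part still stood at 693 and 703 CPM. Cycling against non-cycling cells gave 2 of 13 members higher, where 7.57% of all genes were higher and 4.37% lower: Tpi1, 1.64-fold and 1.65-fold, and Ldha, 1.67-fold and 1.87-fold. The stress genes were lower in cluster 9, at 1015 to 1922 CPM, and T cell markers stood at 6.30 to 44.9 CPM against 8.61 to 21.7 in follicular cells and 2980 to 3207 in naive CD4 cells. The parts of proliferation, stress and T cell transcripts in the result were not tested.

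Other genes of the pathway were taken from 6 lists. In cluster 9, over the 3 libraries with B cells, the pentose phosphate list had 2 of 6 compared genes higher, the list of pyruvate entry into mitochondria 2 of 7, the list of oxygen sensing and other hypoxia-induced genes 2 higher and 2 lower of 9, the growth signal list 2 of 6, and the list of other glycolytic isoenzymes 0 of 1. The furthest apart were Slc7a5, a transporter of large amino acids, at 3.57 to 6.47 times its follicular level, Tkt, transketolase of the pentose phosphate pathway, at 2.86 to 3.08 times, and Akt1, a kinase of growth signalling, at 3.25 to 3.29 times. The stress list had 5 of 8 genes lower, led by Junb at 0.179 to 0.207 and Jun at 0.169 to 0.219 times the follicular level.

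Activated B cells, the cluster led by Egr1, Myc and Nr4a1 (441, 745 and 397 cells), had no member past the fold in every library against follicular cells. Of 23 members compared, 0 were higher and 0 lower, where 0.989% of all genes were higher and 0.88% lower. The members' median log2 ratio was -0.07 ± 0.05 (SD over 3 libraries) and that of all genes -0.09. Ldha stood at 261, 219 and 252 CPM against 209, 219 and 214 in follicular cells, and Pkm at 226, 213 and 235 CPM against 224, 226 and 222. Hif1a stood at 63.0, 62.4 and 69.7 CPM, 0.957 to 1.03 times the follicular level. The growth gene Myc in the same cells was 4.97 to 6.80 times its follicular level, but it was among the markers that named the cluster, so that difference was built in. In cluster 9 the same 7 members were also higher than in activated B cells, of 14 compared, where 22.3% of all genes were higher. Tpi1 stood at 40.1, 40.1 and 33.4 CPM in activated cells, and the ratio of cluster 9 to activated cells was 6.42 to 7.85.

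Many members were also higher in B cluster 5 (350, 296 and 325 cells), which no fixed marker list named and whose leading genes were Srm, Mif, Ppp1r14b and C1qbp. Against follicular cells 11 of 27 members were higher and 3 lower, where 12.0% of all genes were higher and 13.4% lower. More members passed the count filter here than in cluster 9, where 14 could be compared, so the counts of the 2 clusters are not ranked. The median log2 ratio of the members was 0.42 ± 0.07 (SD over 3 libraries) and that of all genes -0.11. Stress genes stood at 2778 to 3481 CPM in cluster 5 and proliferation markers at 47.7, 128 and 72.8 CPM. Their part in the result was not tested.

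Slc16a1, the lactate transporter MCT1, stood at 16.6, 9.43 and 13.8 CPM in cluster 5 and at 3.68, 5.08 and 4.75 CPM in follicular cells. Hk2, the inducible hexokinase, stood at 10.2, 12.6 and 10.9 CPM against 1.92, 2.29 and 2.41, which gave ratios of 5.33 (2.82 to 10.0), 5.48 (3.04 to 9.80) and 4.52 (2.42 to 8.21). Hk1, the constitutive hexokinase, stood at 12.2, 12.6 and 17.2 CPM against 25.5, 22.0 and 21.7. Hk2 thus formed 45.7%, 50% and 38.8% of the UMIs of both hexokinase genes in cluster 5 and 7.00%, 9.46% and 10.0% in follicular cells. The shares did not overlap between the classes.

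Ldha stood at 628, 736 and 675 CPM in cluster 5, 3.01 to 3.36 times the follicular level and above cluster 9 in each of these libraries. Pgam1 was at 199, 236 and 218 CPM, Tpi1 at 105, 125 and 120, Pgk1 at 176, 188 and 186, Pkm at 473, 561 and 523 and Gapdh at 527, 574 and 380 CPM. Tpi1 and Gapdh were lower here than in cluster 9 and Ldha was higher, in each of the 3 libraries. Pfkp was 2.16 to 2.88 times its follicular level, and Eno3, the muscle enolase, stood at 14.6, 14.1 and 8.03 CPM against 3.04, 3.03 and 3.47. Vegfa stood at 8.77, 14.7 and 13.2 CPM against 1.92, 4.10 and 3.84 and was the 1 hypoxia gene higher in cluster 5.

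The members lower in cluster 5 were P4ha1, a collagen prolyl hydroxylase subunit, at 18.5, 17.3 and 16.1 CPM against 35.3, 36.1 and 33.7, Pfkfb4, a regulator of fructose 2,6-bisphosphate, at 9.25, 8.38 and 8.60 CPM against 16.5, 17.5 and 16.8, and Aldoc, the brain aldolase, at 5.36, 4.71 and 4.59 CPM against 8.63, 8.36 and 7.91. Against activated B cells 8 of 22 members were higher and 2 lower, where 11.6% of all genes were higher and 7.96% lower. The 2 that were lower were Hk1 (0.555 to 0.637) and Slc2a3, the glucose transporter GLUT3 (0.397 to 0.598). In the fixed lists, the largest ratios over follicular cells were those of Mif, a cytokine gene and a leading gene of the cluster (5.22 to 5.89), Slc7a5 (4.81 to 6.28) and Fam162a, a HIF-1 target (3.41 to 3.58).

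Memory-like B cells (307, 225 and 399 cells) had 1 of 24 members higher than follicular cells and 0 lower, where 2.56% of all genes were higher and 2.89% lower. It was Eno3, at 10.6, 9.50 and 6.42 CPM.

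**Figure D3:**
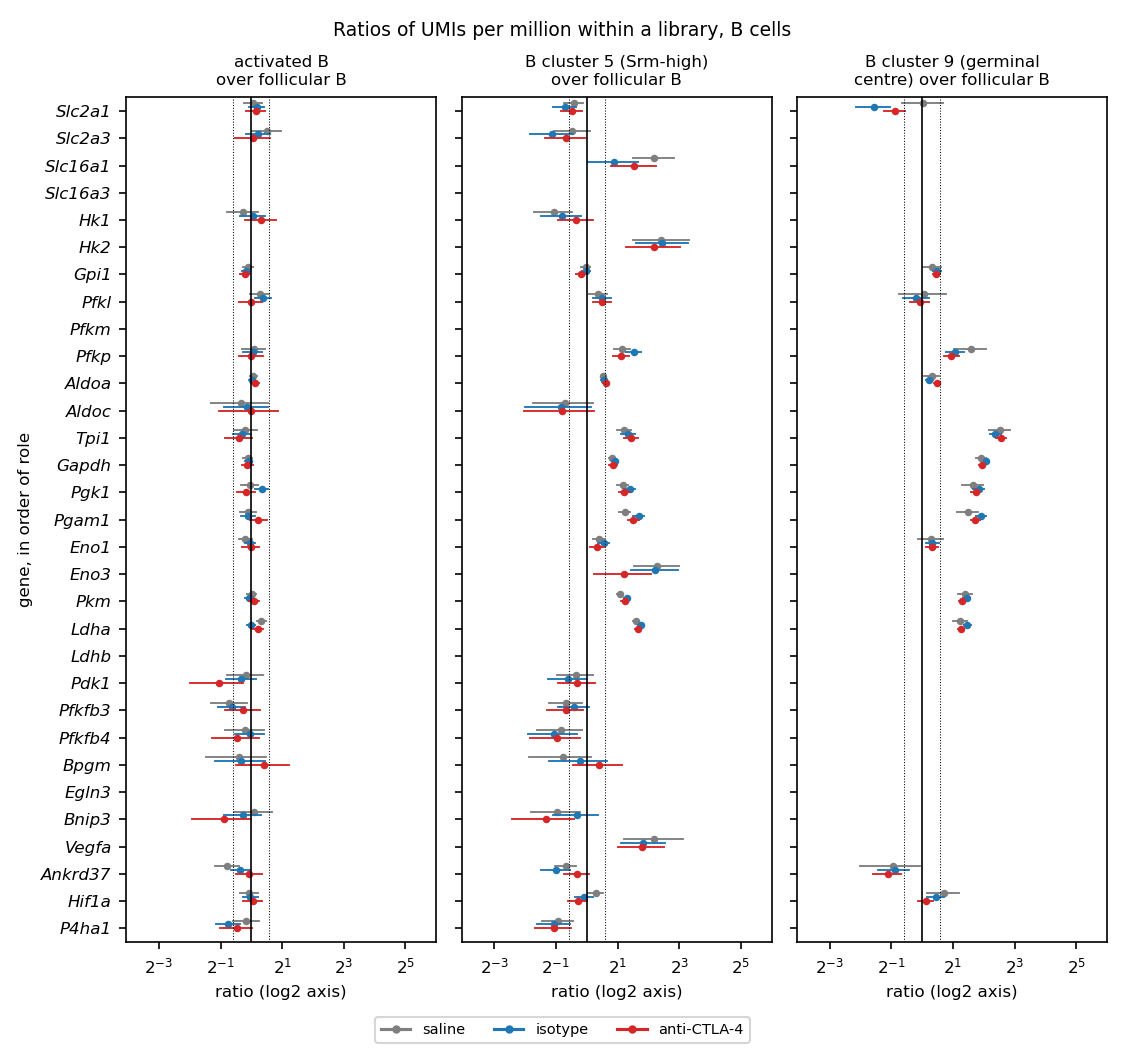
Ratio of each member's level over follicular B cells (log2 axis), for the germinal centre cluster, activated B cells and B cluster 5; each point is 1 library with B cells, bars are 95% intervals, dotted lines mark 1.5-fold, and members with too few UMIs are blank. Tpi1 reaches 5.94 in the germinal centre cluster, while no member compared passes 1.5-fold in every library in activated B cells.

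Naive CD4 T cells and follicular B cells, both resting, differed in which members they expressed. Over the 3 libraries with B cells, 9 of 28 members were higher in naive CD4 cells and 6 lower, where 14.2% of all genes were higher and 18.8% lower. Ldhb, the lactate dehydrogenase subunit that favours pyruvate formation, stood at 39.7, 32.9 and 31.9 CPM in naive CD4 cells, while follicular B cells had 1, 0 and 1 UMIs in all. In the isotype library, where the follicular count was 0, the level was at least 134-fold higher in naive CD4 cells, on a floor of 3 UMIs. Ldhb formed 7.98%, 7.23% and 6.83% of the UMIs of Ldha and Ldhb in naive CD4 cells. Ldha itself stood at 458, 423 and 435 CPM, 1.93 to 2.2 times the follicular level.

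Pdk1, the kinase that holds pyruvate back from mitochondria, stood at 95.6, 105, 93.5, 109 and 106 CPM in naive CD4 cells and at 18.7, 18.9 and 19.2 CPM in follicular B cells. Pfkm, the muscle phosphofructokinase, stood at 5.75, 5.84 and 5.76 CPM against 0.639, 1.07 and 0.904, and P4ha1 at 113, 108 and 110 CPM against 35.3, 36.1 and 33.7. Hk1, Pkm, Bpgm and Slc16a1 were the remaining 4 that were higher, at 1.66 to 3.06 times the follicular level. Lower in naive CD4 cells were Slc2a1 (35.5, 26.8 and 31.4 CPM), Pgam1 (46.0, 38.0 and 42.0), Pfkfb4 (5.88, 5.99 and 6.48), Bnip3 (4.47, 3.89 and 3.72), Ankrd37 (9.97, 6.28 and 7.08) and Aldoc (0.894, 0.449 and 0.360). Aldoc, at 0.0455 to 0.104 times the follicular level, was furthest apart. B and T cells of a group were counted in 1 library, so this difference between classes was seen within each of 3 libraries.

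Antigen-experienced conventional CD4 T cells expressed more Hif1a than naive CD4 cells in every library, and more of 3 glycolytic enzymes and Egln3. The class had 157, 133, 241, 293 and 304 cells, and 5 of 21 members were higher and 1 lower, where 9.25% of all genes were higher and 2.2% lower. The members' median log2 ratio was 0.41 ± 0.15 (SD over 5 libraries) and that of all genes 0.15. Hif1a stood at 72.3, 83.6, 81.6, 73.7 and 75.1 CPM in naive CD4 cells and at 350, 467, 449, 253 and 317 CPM in antigen-experienced cells. The ratios were 4.83 (4.22 to 5.53), 5.58 (4.92 to 6.33), 5.51 (4.95 to 6.13), 3.43 (3.11 to 3.79) and 4.22 (3.84 to 4.63), with no overlap between the classes. Egln3 stood at 1.79, 1.35, 1.68, 1.83 and 2.03 CPM in naive cells and at 22.9, 30.6, 32.6, 14.8 and 25.6 CPM in antigen-experienced cells, 8.11 to 22.7 times higher, from 23, 30, 52, 35 and 60 UMIs.

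Among the enzymes, Pgam1 stood at 95.6, 156, 119, 85.9 and 94.0 CPM against 46.0, 38.0, 42.0, 38.8 and 34.1, Gapdh at 630, 907, 535, 640 and 693 CPM against 332, 341, 235, 314 and 308, and Pfkp at 109, 115, 139, 98.2 and 120 CPM against 56.2, 51.8, 60.2, 58.4 and 62.1. The classes did not overlap in any of these genes. P4ha1 went the other way, at 52.8, 27.5, 48.3, 30.9 and 34.2 CPM against 113, 108, 110, 78.4 and 102. Ldha stood at 479, 674, 563, 527 and 506 CPM against 458, 423, 435, 418 and 399 and did not reach the fold in every library. In the fixed lists 2 genes were higher: Slc3a2, the heavy chain that pairs with Slc7a5, at 1.52 to 1.84 times and Pdk3, another pyruvate dehydrogenase kinase, at 1.51 to 2.43 times the naive level. Summed proliferation markers, at 62.2 to 94.4 CPM, were above those of naive CD4 cells (51.5 to 64.7) in each of the 5 libraries. Cd8a stood at 32.0 to 61.8 CPM in this class and at 1.05 to 2.28 CPM in naive CD4 cells, and 42 of its cells formed a subcluster led by Cd8b1 and Cd8a. Other subclusters, of 109 and 101 cells, had naive T cell markers among their leading genes. These were Lef1 and Ly6c1 in the former, and Satb1 and Lef1 in the latter, so the class name is less certain for these cells. The parts of these subclusters and of proliferation markers in the result were not tested.

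Within this class a subcluster of 90 cells (9, 16, 39, 10 and 16), called Tfh-like here from its score for follicular helper T cell markers, held the highest Hif1a of all classes. The subcluster was led by Sostdc1, Tigit, Il17a and Il4. Hif1a stood there at 1181, 1037, 1207, 768 and 920 CPM, and Egln3 at 0, 95.3, 104, 37.8 and 130 CPM. Only the anti-CTLA-4 library had at least 20 such cells, so no ratio was formed. Without these cells the class still had 4 of 20 members higher and 1 lower than naive CD4 cells, where 8.38% of all genes were higher and 1.93% lower: Hif1a (3.19 to 4.12), Pgam1 (1.98 to 2.6), Gapdh (1.85 to 2.23) and Pfkp (1.63 to 2.04), with P4ha1 lower. Egln3 had too few UMIs there to be compared, with ratios of 7.67 to 13.6.

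**Figure D4:**
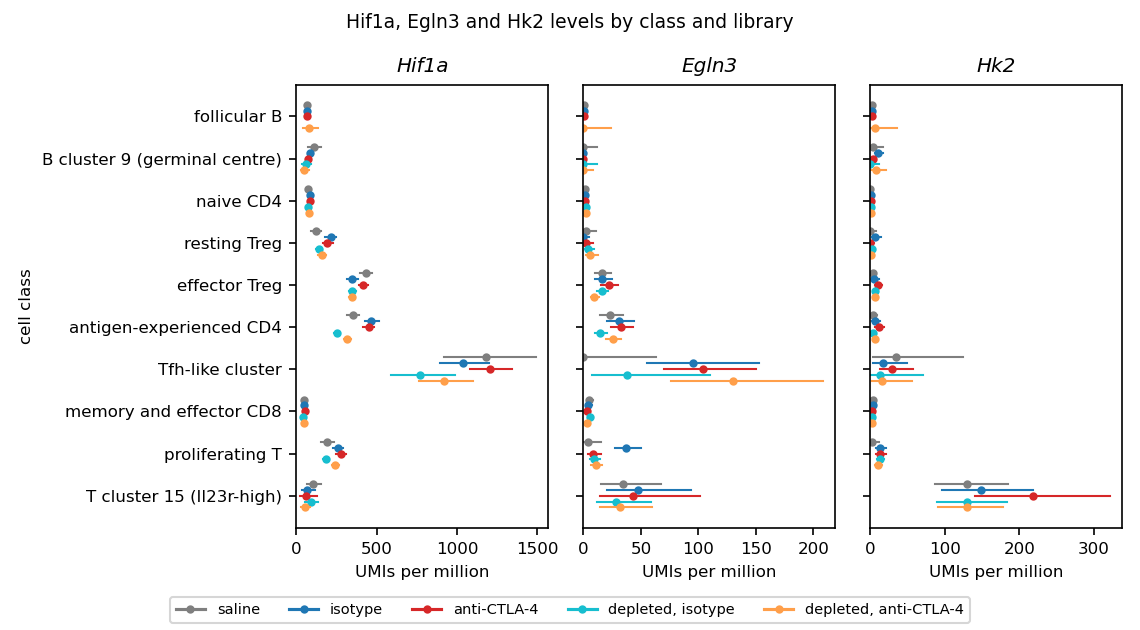
Levels of Hif1a, Egln3 and Hk2 in CPM (linear axes) by class; each point is 1 library, the Tfh-like cluster with fewer than 20 cells included, and bars are 95% intervals. Hif1a lies between 253 and 467 CPM in antigen-experienced CD4 cells and between 72.3 and 83.6 CPM in naive CD4 cells.

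Regulatory T cells also held much Hif1a, together with Slc16a3 and Eno3. Slc16a3 was as high in 2 smaller classes of the anti-CTLA-4 library, at 46.8 CPM in 39 Tfh-like cells and 52.3 CPM in 22 cells of T cluster 15. Effector Treg cells (281, 237, 374, 390 and 490 cells) against naive CD4 cells had 9 of 25 members higher and 1 lower, where 13.4% of all genes were higher and 3.61% lower. Slc16a3, the lactate exporter MCT4, stood at 25.8, 34.2, 29.5, 26.8 and 16.9 CPM in effector Treg cells and at 1.28, 1.65, 2.52, 1.40 and 1.90 CPM in naive CD4 cells. Its ratios were 20.2 (9.83 to 45.7), 20.8 (10.6 to 44.7), 11.7 (6.97 to 20.4), 19.1 (11.7 to 32.2) and 8.86 (5.58 to 14.3). Resting Treg cells had it too, at 21.3, 21.4, 19.1, 22.9 and 17 CPM, overlapping the effector values.

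Eno3 stood at 40.9, 27.2, 54.2, 44.3 and 51.5 CPM in effector Treg cells, at 29.1, 37.0, 21.5, 29.5 and 22.7 CPM in resting Treg cells and at 4.34, 3.44, 4.2, 4.63 and 4.32 CPM in naive CD4 cells. It made up 14.2% to 30.5% of the UMIs of Eno1 and Eno3 in effector Treg cells and 1.98% to 2.94% in naive CD4 cells. Ldhb was at its highest in effector Treg cells, at 71.7, 73.9, 64.5, 64.7 and 91.7 CPM, 1.68 to 2.49 times the naive CD4 level. Pdk1 was the member that was lower, at 25.8, 20.2, 18.1, 23.6 and 23.6 CPM, or 0.193 to 0.270 of the naive level. Hif1a was 4.15 to 5.97 times the naive level, Egln3 4.68 to 13.0, Pgam1 2.45 to 3.08, Tpi1 2.46 to 2.93, Gapdh 2.01 to 2.14 and Pfkp 1.52 to 2.00. In the lists, Mxi1, a MYC antagonist and HIF-1 target, was 2.84 to 4.69 times and Fam162a 2.21 to 2.30 times the naive level.

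Effector against resting Treg cells, the comparison within the lineage, had 4 of 21 members higher and 1 lower, where 5.43% of all genes were higher and 1.75% lower. Hif1a stood at 120, 212, 193, 139 and 156 CPM in resting and at 432, 347, 417, 347 and 345 CPM in effector cells. Pgam1 stood at 21.3, 42.7, 33.5, 28.7 and 29.4 CPM against 113, 100, 108, 97.0 and 105 in effector cells, Tpi1 at 40.7, 32.8, 57.4, 36.1 and 27.5 CPM against 93.3, 80.9, 107, 87.1 and 91.1, and Aldoa at 219, 215, 262, 231 and 226 CPM against 422, 409, 444, 349 and 363. None of the 4 overlapped between the classes. Proliferation markers were also higher in effector cells in each library, at 45.9, 61.5, 77.1, 84.7 and 136 CPM against 11.6, 22.8, 33.5, 18 and 28.4, and their part in the result was not tested. On a total without immunoglobulin, T cell receptor, ribosomal protein and mitochondrial genes, 2 members were higher. At a finer clustering resolution 5 of 22 members were higher, where 2.7% of all genes were. Only 2 of these 5 were among the 4, so the genes called depended on the clustering. Resting Treg against naive CD4 cells had 2 of 19 members higher, Hif1a (1.66 to 2.54) and Slc2a3 (1.80 to 3.13), and 1 lower, Pdk1, where 4.85% of all genes were higher and 1.47% lower. Slc2a3 stood at 48.5, 39.9, 51.4, 39.3 and 45.5 CPM in resting Treg cells and at 15.5, 22.1, 17, 17.8 and 16.2 CPM in naive CD4 cells. P4ha1 stood at 192, 132, 142, 124 and 97.5 CPM in resting Treg cells, and the saline value was its highest in any class with at least 20 cells.

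Memory and effector CD8 cells (348, 352, 409, 513 and 605 cells) differed little from naive CD8 cells. Of 23 members 1 was higher and 2 lower, where 3.49% of all genes were higher and 1.62% lower. Pgam1 stood at 110, 84.7, 100, 98.8 and 95.7 CPM against 68.7, 51.7, 55, 55.5 and 51.2. Ldhb stood at 3.90, 6.62, 7.86, 3.95 and 6.27 CPM against 13.5, 12.5, 14.2, 13.4 and 15.2, and Pdk1 at 40.0, 44.3, 41.7, 40.8 and 49.8 CPM against 67.0, 79.9, 69.6, 80.8 and 79.4. Without the saline library 2 members were higher. Hif1a stood at 42.6 to 55.6 CPM in memory and effector CD8 cells and at 57.1 to 66.2 CPM in naive CD8 cells.

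Proliferating T cells (22, 57, 62, 94 and 85 cells) had 7 of 19 members higher than naive T cells and 2 lower, where 18.8% of all genes were higher and 4.71% lower. In order of the pathway these were Pfkp (1.63 to 2.04), Tpi1 (3.24 to 8.66), Gapdh (2.81 to 4.60), Pgk1 (2.28 to 3.77), Pgam1 (2.63 to 9.74) and Pkm (1.71 to 3.36), with Hif1a (2.76 to 3.90). Pdk1 (0.215 to 0.431) and P4ha1 (0.214 to 0.438) were lower. Ldha stood at 625, 1382, 983, 1057 and 1043 CPM and missed the fold in the saline library alone. Tpi1 stood at 122, 309, 209, 201 and 207 CPM. The summed proliferation markers, which chose the class, were 4887, 3017, 4361, 4107 and 4079 CPM, so their order over libraries was not that of the glycolytic genes. Of the stress list 6 of 9 genes compared were lower in proliferating T cells. B cell markers stood there at 250, 200 and 184 CPM in the libraries with B cells, against 10.9 to 32.9 CPM in naive CD4 and CD8 cells of those libraries, and at 30.2 and 13.0 CPM in the depleted libraries. The parts of stress and B cell transcripts in the result were not tested.

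T cluster 15 (31, 25, 22, 35 and 38 cells), led by Pxdc1, Tmem176b, Cd163l1, Zbtb16 and Il23r, was the class with the most Hk2. The naming rule scored it as gamma-delta T cells. As no marker of that list was among its leading genes, it is reported by number. The gamma-delta genes Trdc and Tcrg-C1 stood at 65.1 to 181 and 130 to 270 CPM in this cluster. In naive CD4 cells they stood at 1.92 to 3.72 and 0 to 0.480 CPM. Hk2 stood there at 129, 148, 218, 130 and 129 CPM, against 0 to 0.599 CPM in naive CD4 cells and 1.74 to 2.98 CPM in memory and effector CD8 cells. Hk2 formed 61.5% to 74.0% of the UMIs of both hexokinase genes in this cluster. Pfkp stood at 233, 284, 261, 317 and 311 CPM, 4.14 to 5.48 times the naive CD4 level, and formed 78.9% to 84.8% of phosphofructokinase UMIs. These were the 2 members higher of 9 compared, where 18% of all genes were higher and 5.96% lower. Egln3 stood at 34.4, 47.3, 43.5, 28.4 and 31.5 CPM, above naive CD4 cells in every library, on too few UMIs to be compared, while Hif1a stood at 52.4 to 103 CPM.

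**Figure D5:**
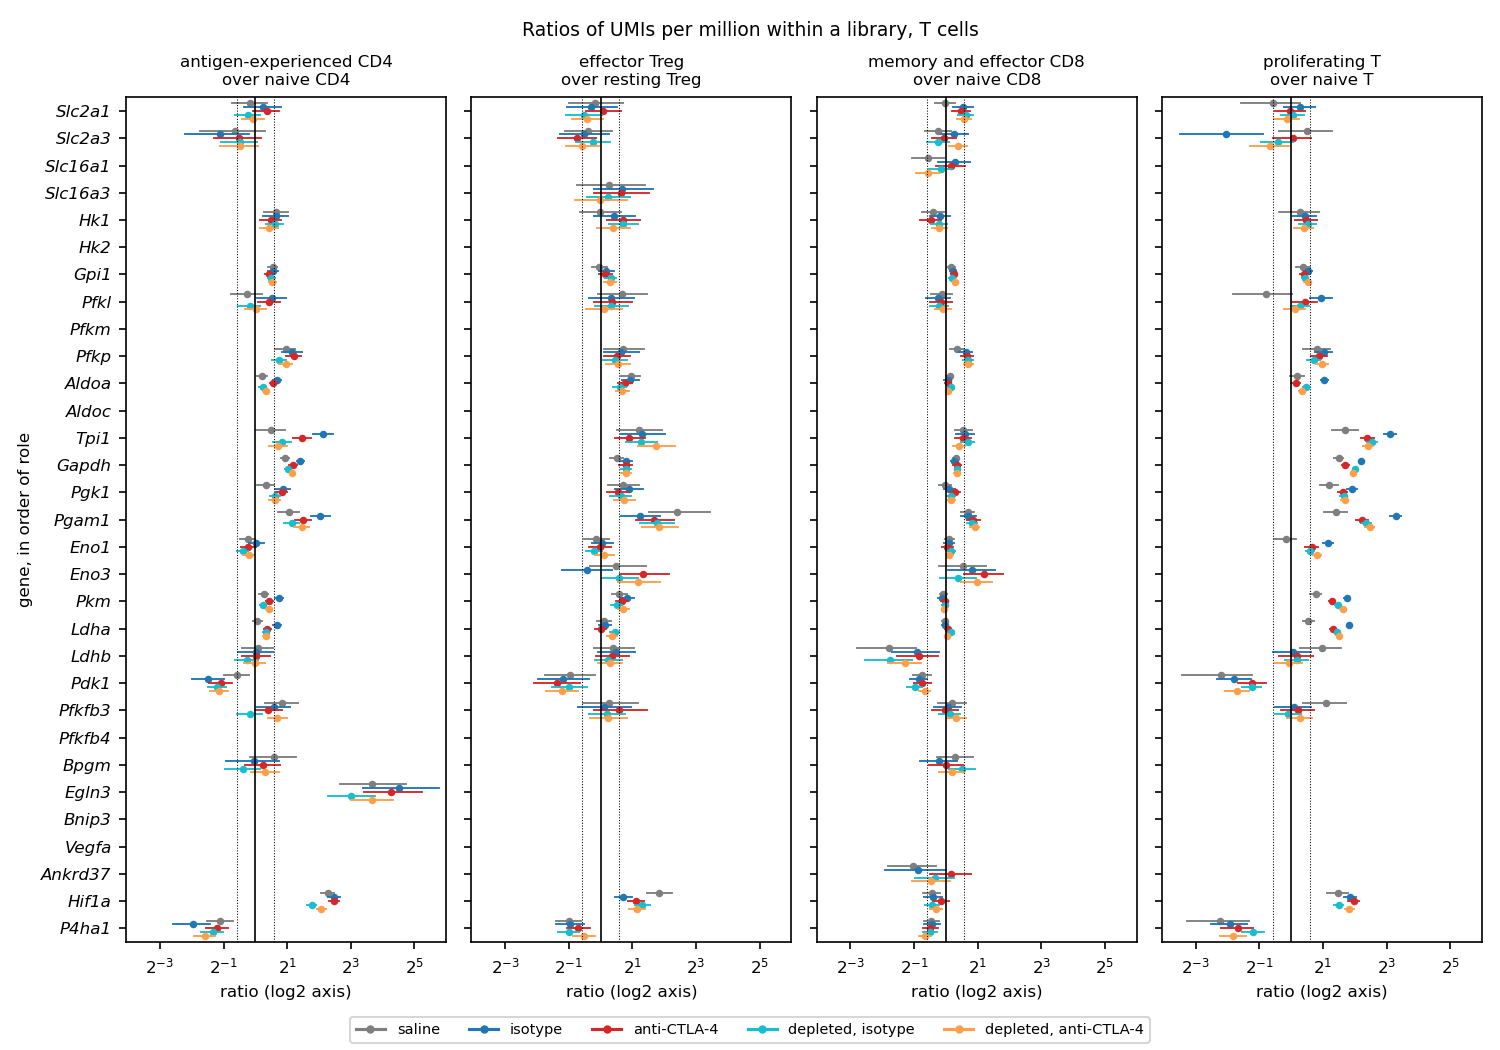
Ratio of each member's level in T cell classes over their naive or resting counterpart (log2 axis); each point is 1 library, bars are 95% intervals, dotted lines mark 1.5-fold, and members with too few UMIs are blank. Hif1a is higher in antigen-experienced CD4 and effector Treg cells in all 5 libraries, and Pdk1 is lower in effector Treg cells.

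Between libraries, 5 comparisons were made within 7 or 8 classes each, and the members were called about as often as other genes. The comparisons share libraries, so their counts are not independent, and with 1 library a side each compares these libraries and not the treatments. Glioma with isotype over saline control had 19 of 188 member and class pairs at least 1.5-fold apart (10 higher, 9 lower), which is 10.1% where 10.9% of all gene and class pairs were apart (4.64% higher, 6.22% lower). Anti-CTLA-4 over isotype had 19 of 201 (12 higher, 7 lower), 9.45% against 9.42%. Depleted over not depleted had 19 of 161 under isotype (5 higher, 14 lower), 11.8% against 9.92% (11 of 158, 7 lower, without the Tfh-like subcluster described below), and 22 of 179 under anti-CTLA-4 (6 higher, 16 lower), 12.3% against 10.4%. Anti-CTLA-4 over isotype after depletion had 14 of 179 (7 higher, 7 lower), 7.82% against 9.04%.

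Within B cluster 9, anti-CTLA-4 over isotype had 2 enzymes lower, Gapdh and Hk2. Tpi1 stood at 258 and 262 CPM in the isotype and anti-CTLA-4 libraries, Pgk1 at 254 and 267 and Pkm at 616 and 543. Of 22 members 2 were higher and 3 lower, where 9.12% of all genes were higher and 5.88% lower. Those whose interval did not include 1 were Slc2a1, 1.81-fold (1.18 to 2.86), Slc16a1, 0.513-fold (0.273 to 0.955), Hk2, 0.407-fold (0.164 to 0.969), and Gapdh, 0.631-fold (0.592 to 0.672). Among non-cycling cells (85 and 29) 3 of 13 members were lower, Gapdh, Pgam1 and Bpgm, and 0 higher, where 10.3% of all genes were lower and 13.6% higher, and the median log2 ratio was -0.31 for the members and 0.01 for all genes. Isotype over saline had 1 of 13 members lower and 0 higher, Slc2a1 at 0.294 (0.162 to 0.542), where 7.9% of all genes were higher and 16.5% lower and the saline side had 25 cells.

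B cluster 9 of the depleted anti-CTLA-4 library (39 cells) held less of the glycolytic enzymes than that of the anti-CTLA-4 library (169 cells). Of 14 members 6 were lower and 0 higher, where 14.2% of all genes were lower and 13.7% higher, and the members' median log2 ratio was -0.57 against -0.02 for all genes. The 6 were Pfkp 0.598 (0.362 to 0.939), Tpi1 0.638 (0.492 to 0.816), Pgk1 0.618 (0.476 to 0.792), Pgam1 0.474 (0.349 to 0.631), Pkm 0.598 (0.498 to 0.713) and Ldha 0.657 (0.549 to 0.782). Proliferation markers moved with them, at 1501 against 3850 CPM, and 6 of the 39 cells fell in the cycling part against 82 of 169. Among non-cycling cells (33 and 85) 3 of 13 members were lower, Slc2a1, Pfkp and Hif1a, and 1 higher, Eno1, where 12.2% of all genes were lower and 10.2% higher. Tpi1 stood at 164 and 183 CPM and Pkm at 346 and 379 CPM in those cells.

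In antigen-experienced CD4 cells the isotype library stood out from its neighbours. Isotype over saline had 4 of 21 members higher and 2 lower, where 7.59% of all genes were higher and 9.18% lower. They were Slc16a1 3.48 (1.23 to 12.1), Tpi1 2.83 (2.04 to 3.98), Pgk1 1.54 (1.23 to 1.93) and Pgam1 1.63 (1.26 to 2.13), with Pdk1 0.592 (0.384 to 0.901) and P4ha1 0.521 (0.315 to 0.844) lower. Depleted isotype over isotype had 8 of 23 members lower and 1 higher, where 7.6% of all genes were lower and 5.34% higher. Tpi1, at 0.380 (0.297 to 0.486), Hif1a, at 0.542 (0.479 to 0.614), and Egln3, at 0.484 (0.289 to 0.817), were among those lower.

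Those calls changed with the Tfh-like subcluster, which made up 9 of 157, 16 of 133, 39 of 241, 10 of 293 and 16 of 304 cells of the class. The Tfh-like cells of the isotype library held 1.01% of their UMIs in the 31 genes, against 0.503% to 0.719% in the other libraries. Without the subcluster, isotype over saline had 0 of 20 members higher and 3 lower, where 6.53% of all genes were higher and 9.55% lower. Depleted isotype over isotype then had 0 of 20 higher and 1 lower, where 5.64% of all genes were higher and 6.09% lower. Under anti-CTLA-4, depletion had 4 of 26 members lower and 1 higher with the subcluster, where 6.31% of all genes were lower and 4.62% higher. Without it 0 of 23 were lower and 2 higher, where 5.18% of all genes were lower and 4.88% higher.

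Proliferating T cells of the isotype library were higher than those of the saline library in 10 of 18 members and lower in 2, where 13.9% of all genes were higher and 19.3% lower, the saline side having 22 cells. The lineage make-up moved with this: Cd8a stood at 220, 84.6 and 194 CPM and Cd4 at 81.3, 143 and 141 CPM in these cells of the saline, isotype and anti-CTLA-4 libraries, and its part in the result was not tested. Among the 10, Pgam1 was 2.88-fold (2.25 to 3.73), Tpi1 2.53-fold (1.91 to 3.41), Eno1 2.28-fold (1.78 to 2.97) and Ldha 2.21-fold (1.95 to 2.51) higher. Anti-CTLA-4 over isotype had 6 of 26 lower and 1 higher in these cells, where 9.55% of all genes were lower and 17.8% higher, so the isotype library was above both neighbours. Among those lower were Pgam1 at 0.515 (0.444 to 0.595), Aldoa at 0.530 (0.472 to 0.594) and Egln3 at 0.233 (0.109 to 0.457). After depletion anti-CTLA-4 over isotype had 0 of 26 members apart, where 10.8% of all genes were apart.

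Ankrd37 went opposite ways with anti-CTLA-4 in antigen-experienced CD4 cells, at 12.0, 7.14, 20.7, 19.5 and 11.1 CPM. Anti-CTLA-4 over isotype gave 2.90 (1.26 to 7.77), from 33 and 7 UMIs, without depletion and 0.570 (0.339 to 0.942), from 26 and 46 UMIs, after it. Without the Tfh-like subcluster, where Ankrd37 stood at 16.8 CPM in the isotype and 86.5 CPM in the anti-CTLA-4 library, the first ratio was 1.37 (0.383 to 6.09), from 9 and 4 UMIs, too few to be compared. The second was then 0.625 (0.368 to 1.04). In effector Treg cells anti-CTLA-4 over isotype gave higher Slc2a1, 1.85-fold (1.25 to 2.80), Eno3, 1.99-fold (1.34 to 3.01), and Bpgm, 2.39-fold (1.15 to 5.42). These were 3 of 25 members, where 6.99% of all genes were higher. Resting Treg cells had Hif1a 1.77-fold (1.30 to 2.41) higher in the isotype than in the saline library and 0.656-fold (0.524 to 0.823) in the depleted isotype over the isotype library, so the isotype library was again above both. Follicular B cells had 0 of 28 members apart between anti-CTLA-4 and isotype, where 5.87% of all genes were apart, and 2 of 28 higher in the isotype than in the saline library, where 3.32% of all genes were higher. Of these, Vegfa was 2.14-fold (1.29 to 3.64) higher.

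Gapdh and Eno1 were low in the anti-CTLA-4 library across cell types. Gapdh was lower there than in every other library in 12 of 13 classes with at least 20 cells, at a median of 0.711 times (0.553 to 0.803) the median of the other libraries. Eno1 was lowest there in 11 of 13 classes, at a median of 0.759 times (0.638 to 0.832). Follicular B cells gave 298, 301 and 210 CPM for Gapdh and 134, 123 and 89.5 CPM for Eno1, and naive CD8 cells gave 318, 321, 220, 298 and 303 CPM and 166, 151, 115, 155 and 151 CPM. The depleted anti-CTLA-4 library did not share this, as it was lowest in 1 class of 10 for each gene. The ratios of Gapdh over the isotype library in antigen-experienced CD4 cells, 0.590 (0.536 to 0.648), and in B cluster 9 belong to this shift across classes. Whether it came from the mice, the treatment or the library cannot be told apart.

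Of the 31 members, 27 were higher or lower in at least 1 of the 18 class comparisons and 4 in none. The latter were Gpi1, which stood at 235 to 440 CPM over all classes and libraries with at least 20 cells, Pfkl (23.5 to 71), Eno1 (77.2 to 357) and Pfkfb3, the inducible maker of fructose 2,6-bisphosphate (9.45 to 48.7). The count filter left 9 to 28 members to be compared in a class comparison, and sparse members such as Vegfa, Bnip3, Slc16a3, Pfkm and Aldoc were compared in few of them.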

How the data were processed

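The authors deposited 1 matrix of UMI counts per expression library, whose file headers name Cell Ranger 7.0.1. The genome was mm10 and reads were demultiplexed with bcl2fastq 2.20.0, per the submitters' processing notes. The counts are whole numbers, not normalised, and 0 columns belonged to other series. The 3 receptor libraries were not used here. Barcodes with at least 500 genes and at most 10% mitochondrial UMIs were kept. Scrublet scores were computed with scanpy 1.11.5. The automatic call marked 0% to 4.24% of barcodes and none in the depleted libraries, so the 650 to 1112 barcodes with the highest scores in each library, a share set in proportion to its size, were removed. Cells were clustered (Leiden, resolution 1, 2000 variable genes, 30 components, 15 neighbours) without the 31 genes, the listed pathway genes and receptor segments. Pathway genes that were also markers, Myc and Egr1 among them, were not left out. Clusters were named from marker lists. Most names needed the mean log2 ratio of a marker list, relative to all cells clustered together, to pass a cut-off. The cut-offs were decided with the clusters in view. UMIs were summed per class and library and divided by the class's total. The procedure was tested on simulated data for the comparison of germinal centre with follicular B cells. Over 4434 genes, 91% of 100 genes changed 2-fold and 100% of 100 changed 3-fold were called, and 95.82% of intervals held the true ratio. The simulated counts had counting error only, the error the intervals assume, and the same levels in every library. The share of intervals was therefore largely set in advance, and variation between cells or libraries was not tested. Where a count was 0, a floor of 3 counts was used. Intervals of 95% cover counting error only.

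Members and lists were chosen with earlier results of these data known. Named were members called in a class comparison, members past the fold with an interval without 1 between libraries, paralog pairs, and up to 3 pathway genes per direction. Alternatives were another scaling, no count filter, a fold of 2, other clusterings and cell filters, and leaving out each library.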

Additional observations from a re-analysis of the deposited data

Results flagged for a closer look

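Ankrd37, a HIF-1 target, moved in opposite directions with anti-CTLA-4 in antigen-experienced conventional CD4 T cells. The ratio of anti-CTLA-4 over isotype was 2.90 in the libraries that kept their B cells and 0.570 after B cell depletion, and neither interval included 1. With 1 library per group the difference between these ratios was not tested. Ankrd37 had 7 to 46 UMIs in this class in those 4 libraries. Without the Tfh-like subcluster the ratios for Ankrd37 were 1.37 (0.383 to 6.09) and 0.625 (0.368 to 1.04), so that both intervals then included 1.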

How the results depend on the processing

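Counts below are members called higher in a class comparison, or called in either direction between libraries. Shares are those of all genes called higher under the same setting. Germinal centre over follicular B cells gave 4 of 9 members compared (13.3% of all genes), 2 at a fold of 2 (5.5%), and 7 of 14 with each of Leiden resolution 2 (21.2%), the members among the clustering genes (20.5%), and a mitochondrial share of at most 5% (22.2%). Leaving out 1 library gave 4 to 7, the 7 of 14 being without the depleted anti-CTLA-4 library (21.3%). Activated over follicular B cells gave 0 (0.989%), and 1 with no count filter (13.8%) or at resolution 2 (2.47%). Leaving out 1 library gave 0 to 1, the 1 being without the saline library (1.33%). In this comparison 1 of 23 members was lower without the anti-CTLA-4 library, and 1 of 20 at resolution 2. Antigen-experienced over naive CD4 cells gave 5 (9.25%), and 3 at a fold of 2 (5.06%). Effector over resting Treg cells gave 4 (5.43%), 1 at a fold of 2 (2.7%), and 2 (4.37%) on the total without immunoglobulin, T cell receptor, ribosomal protein and mitochondrial genes. Resolution 2 gave 5 of 22 (2.7%), with 2 of the 4 among them. Memory and effector over naive CD8 cells gave 1 (3.49%), 2 with no filter (6.02%) and 0 at a fold of 2 (2.03%). Leaving out 1 library gave 1 to 2, the 2 being without the saline library (3.8%). Proliferating over naive T cells gave 7 (18.8%), and 5 to 10 over all alternatives.

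Between libraries, with no filter the counts were 53 for isotype over saline (19 with the filter), 43 for anti-CTLA-4 over isotype (19), 54 for depletion under isotype (19), 63 for depletion under anti-CTLA-4 (22) and 32 for anti-CTLA-4 after depletion (14). The balance of directions moved with the setting. Anti-CTLA-4 over isotype had 7 of 19 lower with the filter and 25 of 43 without. Depletion under anti-CTLA-4 had 16 of 22 lower with the filter and 29 of 63 without. Isotype over saline had 9 of 19 lower, 13 of 21 with cells weighted equally, 11 of 18 at resolution 2, 11 of 20 with the members among the clustering genes, and 10 of 16 without the Tfh-like subcluster. Anti-CTLA-4 after depletion had 7 of 14 lower, 19 of 32 with no filter and 10 of 16 with a mitochondrial share of at most 5%. At a fold of 2 the counts were 9, 5, 5, 6 and 3 in that order. Without the Tfh-like subcluster, an alternative chosen after seeing the data, depletion under isotype gave 11 of 158. The cause of these changes was not tested, except that a higher fold allows fewer calls and no filter lets in genes of few UMIs. No paired analysis was possible because each group has 1 library.

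The germinal centre cluster, with 22 to 74 cells outside the anti-CTLA-4 library, gave wide intervals. Egln3, Vegfa, Bnip3, Hk2 and Slc16a3 did not reach the count needed for a comparison with follicular cells in every library with B cells.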
